A study of Mus musculus with 16 samples.

Results

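The 41 genes described here make, regulate or handle sterols and fatty acids. They were chosen by symbol as the SREBP transcription factors, their partners, enzymes and carriers of these pathways, and genes of sterol efflux and esterification. They are 41 of the 20622 genes in the total RNA tables, and 19 of them belong to sterol synthesis, 14 to fatty acid synthesis, 5 to the regulators and 3 to efflux and esterification. Ribosome-protected fragments (RPFs) are the pieces of mRNA that a ribosome shields from RNase I. RPFs and total cytoplasmic RNA were sequenced from mouse lung tumour cells. The aim was to compare which mRNAs ribosomes occupied with and without eIF4A2, an RNA helicase of the eIF4A family. The cells (KM cells) carry Rosa26 LSL-MYC/LSL-MYC in both lines and came from tumours of 1 male mouse, started with a Cre virus driven by the surfactant protein C promoter. KM_NTC cells received a CRISPR vector with a non-targeting guide, and KM_4A2cr cells one with a guide against the coding region of Eif4a2, after which 4 clones without detectable eIF4A2 protein were pooled. Both lines were untreated, were selected in puromycin and express Cas9. Each line gave 4 replicates, harvested as separate experiments, and each replicate gave 1 RPF and 1 total RNA library from the same lysate, or 16 libraries. There is 1 line of each kind, so a difference between the lines and an effect of the guide cannot be told apart, and p-values measure the spread between repeat experiments on the same lines.

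Cells build cholesterol from acetyl-CoA through the mevalonate pathway, whose first enzymes lie mainly in the cytosol or peroxisomes and whose last enzymes lie in the membrane of the endoplasmic reticulum. Fatty acids start from the same acetyl-CoA, are assembled by acetyl-CoA carboxylase and fatty acid synthase, and are then elongated, desaturated and coupled to coenzyme A at membranes. SREBP transcription factors, held in the endoplasmic reticulum by SCAP and INSIG proteins while sterols are plentiful, switch on the genes of both branches, and alveolar type II cells use these pathways to make surfactant lipid.

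Total counts ran from 4512403 to 9621848 in the RPF libraries and from 5350919 to 9312622 in the total RNA libraries. Eif4a2 itself had RPF levels of 97.7, 122, 99.8 and 389 CPM (counts scaled to a common library size) in KM_NTC replicates 1 to 4 and 51.0, 88.4, 74.8 and 346 CPM in the KM_4A2cr replicates. Its RPFs were lower in every pair, with a log2 fold change of -0.49 (SE 0.15, adjusted p = 0.0941 in the edgeR quasi-likelihood fit over 4 replicate pairs, Benjamini-Hochberg method, where a gene was called, or said to rise or fall, at an adjusted p under 0.1). Its total RNA differed by -0.18 (adjusted p = 0.504 by edgeR). A guide to the coding region need not remove the transcript, so these values do not test the protein, and leaving out replicate 1, 2 or 3 ended the RPF call (adjusted p of 0.30 to 0.38 by edgeR). Replicate 4 lay farthest from the others in both lines: gene by gene, the SD of its RPF difference from the mean of the other 3 replicates was 0.82 on the log2 scale in KM_NTC and 0.97 in KM_4A2cr, against 0.45 to 0.63 and 0.48 to 0.72 for replicates 1 to 3 treated alike. Of the alveolar type II markers, Sftpc and Sftpb were listed at 0 in every total RNA library and Abca3, a lipid transporter, was the most abundant of the 8 at 31.2 TPM in KM_NTC and 42.6 TPM in KM_4A2cr (TPM is a share of the library corrected for transcript length). The 8 together summed to between 29.4 and 35.7 TPM in KM_NTC and between 37.5 and 49.2 TPM in KM_4A2cr, nearly all of it Abca3. The 6 epithelial markers summed to between 4174 and 5206 TPM in KM_NTC and between 4307 and 5918 TPM in KM_4A2cr. The 6 fibroblast markers summed to at most 3.03 TPM and the 4 endothelial markers to at most 1.94 TPM, and the leukocyte list was above that level through Cd68 alone (81.0 TPM in KM_NTC). In bulk libraries such as these, fewer cells of a type and less RNA per cell cannot be told apart.

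SREBPs bind a short motif, the sterol regulatory element, near the starts of their target genes. RefSeq promoters (250 bases before to 50 after the gene start, build GRCm38.p6) were matched by symbol for 33 of the 41 genes. The core motif TCACNCCAC, searched on both strands, was found in 1 of the 33 (3.03%) against 1.44% of all 27025 genes with a promoter. A looser form that contains it, TCACNNCAC, chosen after that first search, was found in 4 of the 33 (12.1%) against 4.37% of all genes. These 4 windows are shown because they are the matches among the genes described, with the motif in capitals, and each is written 5′ to 3′ on the strand of its gene.
Hmgcs1, chr13:119690204-119690233, plus strand, motif at -137 from the gene start: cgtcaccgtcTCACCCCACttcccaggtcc
Dhcr7, chr7:143823259-143823288, plus strand, motif at -130: ggaaaagggcTCACTTCACcttatagctca
Hsd17b7, chr1:169969303-169969332, minus strand, motif at -117: tcggcctatcTCACCTCACccggtctgggc
Msmo1, chr8:64733651-64733680, minus strand, motif at -92: cacggaccaaTCACTGCACggcgaaggcag
All 4 are sterol synthesis genes. Their RPF log2 fold changes between the lines were 0.09, -0.38, -0.07 and 0.23 in that order, on both sides of 0. By edgeR 0 of the 4 passed in RPFs or total RNA, and 0 of the 4 had an unadjusted p under 0.05 in either. CCAAT, the box bound by NF-Y, was present in 26 of the 33 promoters (78.8%, against 41.1% of all genes), the GC box GGGCGG in 27 (81.8%, against 38% of all genes) and the E-box CACGTG in 7 (21.2%, against 8.09%), each searched on both strands. The shares of all genes include genes not expressed in these cells, and shares over expressed genes alone were not computed. A match describes letters in a window and not a bound site.

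In the control cells the pathway's transcripts spanned a wide range of abundance, compared here by total RNA in TPM, which allows for transcript length. Msmo1, the methylsterol monooxygenase of the late sterol steps, was the most abundant at 1078 ± 183 TPM (SD, n = 4), followed by the stearoyl-CoA desaturase Scd2 at 531 ± 152, the lanosterol demethylase Cyp51 at 365 ± 56.7, Insig1 at 358 ± 112 and farnesyl diphosphate synthase, Fdps, at 308 ± 70.4. The enzymes that make fatty acids from acetyl-CoA lay low: Fasn, the fatty acid synthase, was at 18.6 ± 9.01 TPM, the cytosolic acetyl-CoA carboxylase Acaca at 12.0 ± 4.98, the acetyl-CoA synthetase Acss2 at 2.93 ± 1.42 and the mitochondrial carboxylase isoform Acacb at 0.33 ± 0.11. Acly, which cleaves citrate to acetyl-CoA, was the exception of that group at 70.4 ± 28.2 TPM. Ordered by mean level, neighbouring genes mostly could not be ranked, since the 4 KM_NTC values overlapped in 37 of the 40 neighbouring pairs. The 3 gaps lay below Msmo1, between Acss2 and Acacb, and between Acacb and the cholesterol exporter Abca1 at 0.022 ± 0.017 TPM.

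**Figure D1:**
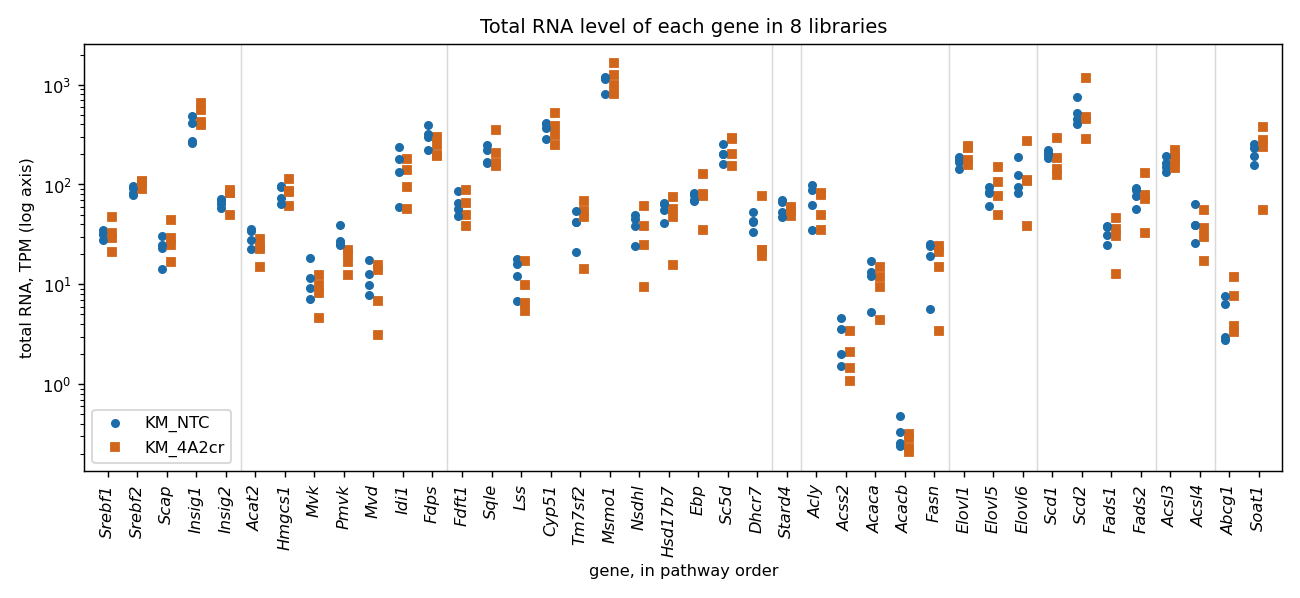
Total RNA level in TPM, on a log axis, of 40 of the 41 genes in pathway order, with 1 point for each of the 4 KM_NTC libraries (circles) and the 4 KM_4A2cr libraries (squares). Msmo1, at 806 to 1201 TPM in KM_NTC, is at the top and Acacb, at 0.24 to 0.48 TPM, at the bottom, and Abca1, at 0 to 0.06 TPM, is left off the log axis.

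Between the lines, 6 of the 40 genes tested changed in RPFs, against 10.3% of all 10291 genes tested. Insig1, Scap, Sc5d and Acsl3 were higher in KM_4A2cr cells (4 of 40, against 6.60% of all genes) and Lss and Fasn were lower (2 of 40, against 3.72%). The share of members called was 15.0%, and the median RPF log2 fold change of the 40 was -0.04, beside -0.01 for all genes tested. In total RNA 3 of 40 changed, all higher (Insig1, Scap and Elovl1), against 6.13% of all 10880 genes tested (4.35% higher and 1.78% lower). The direction was the same in all 4 pairs for 13 of the 40 in RPFs, 6 higher and 7 lower, which is 32.5% against 30.1% of all genes (14.1% higher and 16.0% lower). In total RNA it was the same for 11 of the 40, 9 higher and 2 lower, which is 27.5% against 25.4% (12.4% higher and 13.0% lower). Abca1 was the 1 member too scarce to test, with 7 RPF counts over the 4 KM_NTC libraries and 6 over the 4 KM_4A2cr libraries, and 4 and 2 total RNA counts.

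Without the replicate block 0 members and 0 of 10291 genes passed in RPFs by edgeR (365 genes had an unadjusted p under 0.05), since the spread between experiments then stays in the error. Without the libraries of replicate 4 more were called: 17 of 40 members passed in RPFs (7 higher and 10 lower), against 33.4% of all genes (19.1% higher and 14.3% lower), and 19 of 39 in total RNA (13 higher and 6 lower), against 29.8% (17.8% higher and 12.0% lower). The 6 RPF calls and 3 total RNA calls above were all among them. Without replicate 1, 2 or 3, in turn, 1 member passed in RPFs each time, and that was Insig1.

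**Figure D2:**
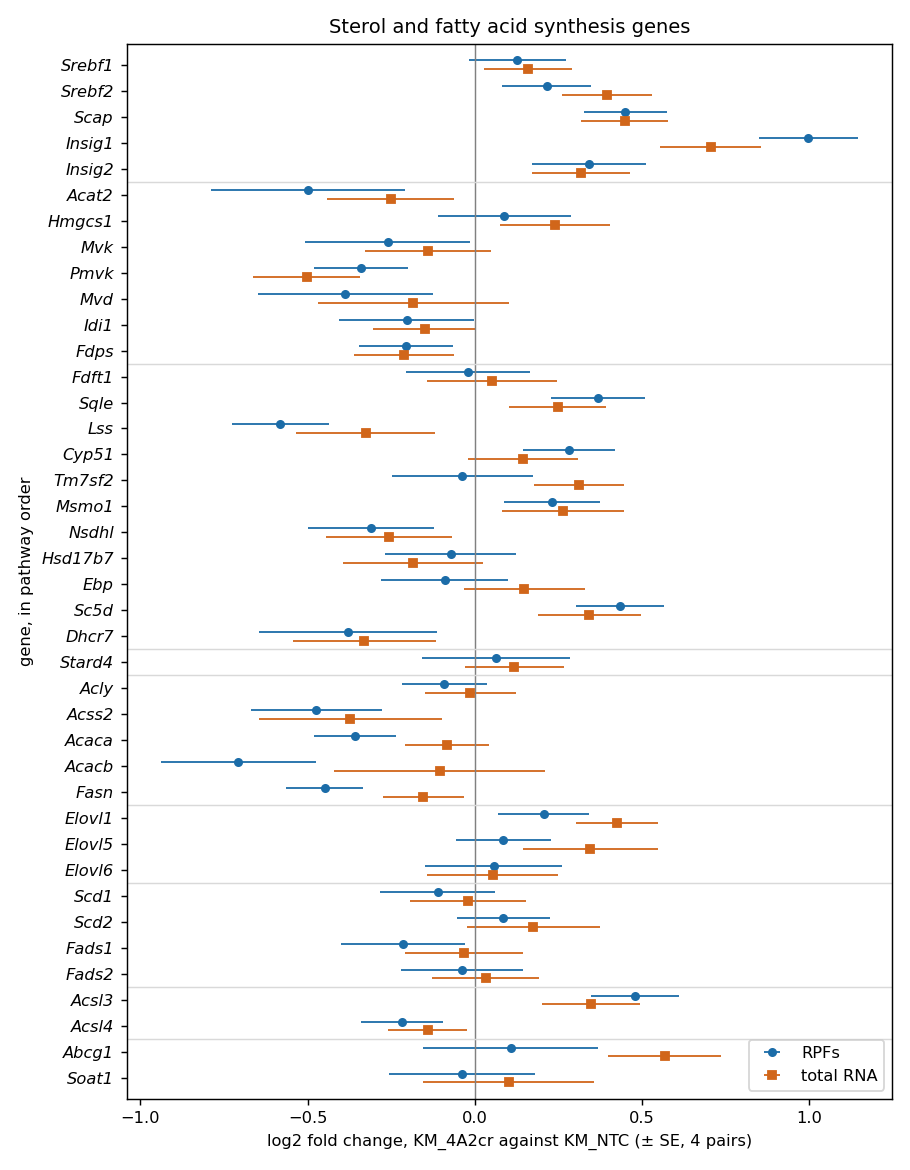
Log2 fold change, KM_4A2cr against KM_NTC, of the 40 genes tested, in pathway order, for RPFs (circles) and total RNA (squares), with bars for the SE of the edgeR fit over 4 pairs. Insig1 lies farthest to the right at 1.00 in RPFs and 0.71 in total RNA, and the 5 enzymes from Acly to Fasn lie left of 0 in both.

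The 5 regulators lay above 0, for 5 of 5 in RPFs and 5 of 5 in total RNA, with medians of 0.34 and 0.40. Under RLE, upper quartile and library size scaling and in DESeq2 the signs held except for Srebf1 in RPFs, at -0.0019 with library size alone. Of the 5, 2 rose in RPFs, against 6.60% of all genes, and the same 2 in total RNA, against 4.35%. Within pairs the RPF median was 0.56, 0.26, -0.10 and 0.39, with 2 of 5 above 0 in pair 3 and 5 of 5 in the others. Insig1 (ENSMUSG00000045294.12) encodes the endoplasmic reticulum anchor that retains the SCAP and SREBP complex, and it is itself a sterol-responsive SREBP target. Its RPFs were at 101, 82.4, 191 and 328 CPM in KM_NTC replicates 1 to 4 and at 230.2, 172, 277 and 761 CPM in the KM_4A2cr replicates. Replicate 4 of each line was the highest of its line and the 2 ranges overlapped, but KM_4A2cr was above KM_NTC in every pair, by 2.27, 2.08, 1.45 and 2.32 times. The fitted log2 fold change was 1.00 (SE 0.15, adjusted p = 0.0111 by edgeR), a fold of 2.00. It stayed past the threshold with each replicate left out, with adjusted p from 0.000300 to 0.0927 by edgeR. Total RNA of Insig1 was at 373, 326, 596 and 860 CPM in KM_NTC and 629, 512, 875 and 1560 CPM in KM_4A2cr, again higher in 4 of 4 pairs. That log2 fold change was 0.71 (SE 0.15, adjusted p = 0.0347 by edgeR), and with 1 of replicates 1 to 3 left out its adjusted p was between 0.153 and 0.280. The RPF change exceeded the RNA change by 0.29 on the log2 scale (SE 0.10, unadjusted p = 0.00676, adjusted p = 0.144 by edgeR), which did not pass.

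Scap (ENSMUSG00000032485.15), the sterol-sensing escort of SREBPs to the Golgi, was at 68.1, 23.6, 46.8 and 30.4 CPM in KM_NTC RPFs and 100.2, 28.4, 69.3 and 39.9 CPM in KM_4A2cr. The lines overlapped and each pair was higher in KM_4A2cr. The log2 fold change was 0.45 in RPFs (SE 0.13, adjusted p = 0.0781 by edgeR) and 0.45 in total RNA (SE 0.13, adjusted p = 0.0976 by edgeR), where levels were 70.4, 45.1, 57.6 and 39.9 CPM in KM_NTC and 106, 51.8, 72.7 and 63.8 CPM in KM_4A2cr. Leaving out replicate 1, 2 or 3 ended both Scap calls, with adjusted p of 0.240 to 0.326 in RPFs and 0.274 to 0.422 in total RNA by edgeR. Scaling by library size alone also ended the RPF call (0.180), and each other scaling, DESeq2 and the RPF isoform alone ended the total RNA call (0.103 to 0.182). Insig2, the second INSIG, had log2 fold changes of 0.34 and 0.32 and passed in neither.

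Of the transcription factors themselves, Srebf2, which favours sterol genes, was at 281, 195, 401 and 449.6 CPM in KM_NTC RPFs and 353, 229, 369.5 and 603 CPM in KM_4A2cr, with a log2 fold change of 0.22 (SE 0.13, adjusted p = 0.367 by edgeR). Its total RNA was at 206, 203, 199.7 and 281 CPM in KM_NTC and 286, 231, 244 and 436 CPM in KM_4A2cr, above in 4 of 4 pairs, with a log2 fold change of 0.40 (SE 0.13, adjusted p = 0.149 by edgeR). With all replicates neither transcription factor gene was called, and without replicate 4 the total RNA of Srebf2 was (0.31, adjusted p = 0.0208 by edgeR). Srebf1, which favours fatty acid genes, was at 167, 126, 219 and 192 CPM in KM_NTC RPFs and 222, 150.3, 177 and 212 CPM in KM_4A2cr, with pair 3 lower and the other 3 pairs higher. Its log2 fold changes were 0.13 in RPFs (SE 0.15, adjusted p = 0.639 by edgeR) and 0.16 in total RNA (SE 0.13, adjusted p = 0.569 by edgeR). Total RNA of Srebf1 ranged from 63.4 to 81.6 CPM in KM_NTC and from 69.5 to 115 CPM in KM_4A2cr.

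Other genes of SREBP processing and feedback, from a list of 15 that does not overlap the 41, were counted in the same fit. The list was chosen with earlier results of these data known, so its counts are a description. Of 14 tested, 4 rose and 0 fell in each kind of library, against 6.60% of all genes higher in RPFs and 4.35% in total RNA, and the median log2 fold change was 0.47 in RPFs and 0.27 in total RNA. Without replicate 4, 12 of 14 rose in RPFs, against 19.1% of all genes, and 11 of 14 in total RNA, against 17.8%, whereas without replicate 1, 2 or 3 the count was 2, 1 and 0 in RPFs and 0 each time in total RNA. The 4 were the same genes in both, and among them were Rnf145, a sterol-sensing ubiquitin ligase (0.57 in RPFs, 0.45 in total RNA), Erlin1, a scaffold of the endoplasmic reticulum membrane (1.01 and 0.67), and Aup1, which brings ubiquitin-conjugating enzymes to it (0.43 and 0.58). Adjusted p-values by edgeR were at most 0.0992 in RPFs and at most 0.0918 in total RNA. Rnf145, Erlin1 and Aup1 take part in degradation at the endoplasmic reticulum. Erlin1 and the nuclear receptor gene Rxra were the 2 genes of this list called in translational efficiency, by 0.34 and 0.65 on the log2 scale (adjusted p = 0.0900 for both by edgeR), against 1.87% of all 9989 genes tested that were called higher. Neither of these calls was kept without replicate 1, 2 or 3 (adjusted p of 0.240 to 0.456 by edgeR).

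The 7 early enzymes of sterol synthesis described here act between acetyl-CoA and farnesyl diphosphate, and do not cover every step. In RPFs 6 of the 7 lay below 0, with a median log2 fold change of -0.26. By edgeR 0 of 7 were called in either kind of library, and 1 of 7, Pmvk, had an unadjusted p under 0.05 in each, against 23.4% of all genes in RPFs and 18.3% in total RNA. Hmgcs1, the synthase of HMG-CoA, was the 1 above 0. Its RPFs were at 328, 261, 218 and 155 CPM in KM_NTC and 334, 218, 178 and 292 CPM in KM_4A2cr, and its log2 fold change was 0.09 (SE 0.20, adjusted p = 0.823 by edgeR). The KM_4A2cr level was 1.02, 0.835 and 0.816 times that of KM_NTC in pairs 1 to 3 and 1.88 times in pair 4. Without replicate 4 the value turned to -0.17. Total RNA of Hmgcs1 was at 174, 144, 133 and 140.3 CPM in KM_NTC and 212, 142, 121 and 250.3 CPM in KM_4A2cr (log2 fold change 0.24, SE 0.17, adjusted p = 0.493 by edgeR).

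The pairs differed for the group as a whole. The median of the 7 in RPFs was -0.20, -0.48 and -0.58 in pairs 1, 2 and 3, with 2, 0 and 0 of the 7 above 0, but it was 0.67 in pair 4, with 6 of 7 above 0. Total RNA followed the same course, at -0.20, -0.36 and -0.50 in pairs 1 to 3 and 0.38 in pair 4. All genes tested had medians between -0.06 and 0.02 in every pair of either library type. The SD of all genes within a pair was 0.49, 0.45, 0.54 and 0.67 in RPFs for pairs 1 to 4. Without replicate 4, 5 of the 7 fell in RPFs, against 14.3% of all genes: Acat2 (-0.86), Mvd (-0.72), Idi1 (-0.47), Pmvk (-0.42) and Fdps (-0.29), which are the thiolase, the mevalonate diphosphate decarboxylase, the isopentenyl diphosphate isomerase, the phosphomevalonate kinase and the farnesyl diphosphate synthase. The same 5 fell in total RNA without replicate 4, by 0.33 to 0.57 on the log2 scale, against 12.0% of all genes. With all replicates, Pmvk, phosphomevalonate kinase, was the 1 early enzyme lower in 4 of 4 pairs, at -0.34 in RPFs and -0.50 in total RNA (adjusted p = 0.187 and 0.12 by edgeR).

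**Figure D3:**
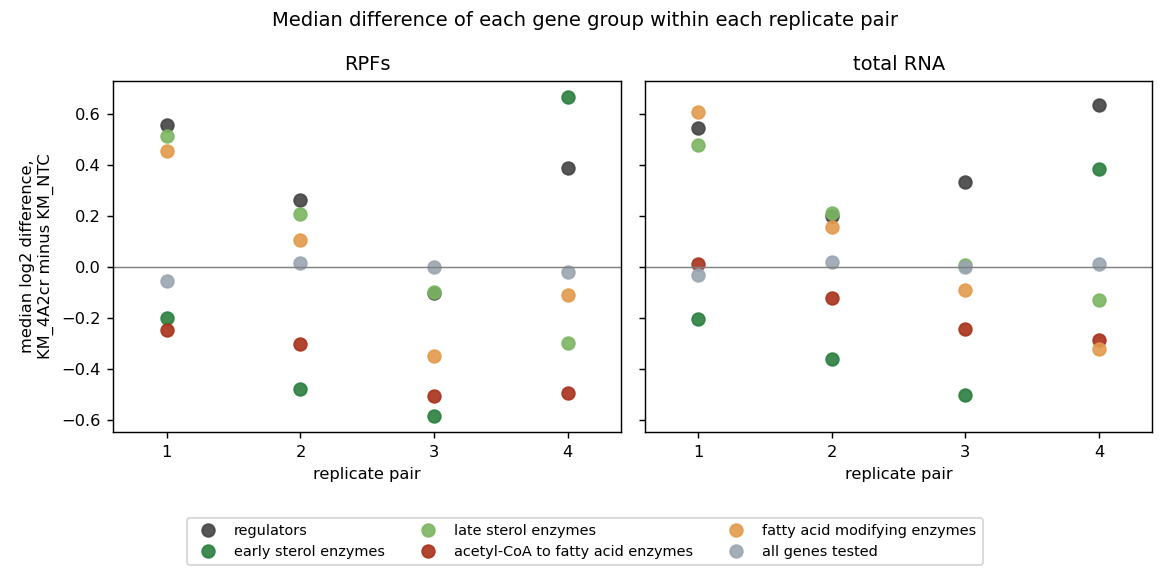
Median log2 difference, KM_4A2cr minus KM_NTC, of each gene group within each of the 4 replicate pairs, for RPFs (left) and total RNA (right), beside the median of all genes tested. The early sterol enzymes lie below 0 in pairs 1 to 3 and at 0.67 and 0.38 in pair 4, and the acetyl-CoA to fatty acid enzymes lie below 0 in all 4 pairs of RPFs.

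The 11 late enzymes described here act between farnesyl diphosphate and cholesterol at the endoplasmic reticulum. In RPFs they split, with 4 above 0, 7 below 0 and a median of -0.04. Sc5d rose and Lss fell, which makes 2 of 11 called, against 10.3% of all genes. Lss (ENSMUSG00000033105.13), lanosterol synthase, closes the sterol rings and had RPF levels of 102, 84.2, 78.1 and 54.3 CPM in KM_NTC and 77.8, 52.8, 40.4 and 44.2 CPM in KM_4A2cr. KM_4A2cr replicate 1 lay within the KM_NTC range and the other 3 below it, and 4 of 4 pairs were lower. The log2 fold change was -0.58 (SE 0.14, adjusted p = 0.0583 by edgeR). Its total RNA, at 45.7, 34.8, 31.6 and 21.3 CPM in KM_NTC and 46.0, 22.7, 15.0 and 27.7 CPM in KM_4A2cr, went up in 2 pairs and down in 2 (log2 fold change -0.33, SE 0.21, adjusted p = 0.453 by edgeR).

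Sc5d (ENSMUSG00000032018.15), the lathosterol desaturase near the end of the pathway, was at 486, 344, 708 and 693 CPM in KM_NTC RPFs and 783, 478, 789 and 926 CPM in KM_4A2cr. Every pair was higher in KM_4A2cr, with overlapping ranges, and the log2 fold change was 0.43 (SE 0.13, adjusted p = 0.0941 by edgeR). In total RNA it was 0.34 (SE 0.15, adjusted p = 0.270 by edgeR), also higher in 4 of 4 pairs, from levels of 354 to 674 CPM in KM_NTC and 482 to 840.3 CPM in KM_4A2cr. Leaving out replicate 1, 2 or 3 ended the RPF calls of Lss (adjusted p of 0.143 to 0.341 by edgeR) and Sc5d (0.267 to 0.412), and upper quartile and library size scaling also ended that of Sc5d (0.118 and 0.143). Without replicate 4 the total RNA of both was called, Lss lower (-0.51, adjusted p = 0.0157 by edgeR) and Sc5d higher (0.43, adjusted p = 0.00145).

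Sqle, squalene epoxidase, which controls entry into the late pathway, was at 434, 199, 362 and 327 CPM in KM_NTC RPFs and 711, 254, 369 and 427 CPM in KM_4A2cr. It was higher in 4 of 4 pairs, by 1.02 to 1.64 times, and did not pass (log2 fold change 0.37, SE 0.14, adjusted p = 0.157 by edgeR), except without replicate 4 (adjusted p = 0.0487). Total RNA of Sqle was at 357, 203, 319.8 and 288 CPM in KM_NTC and 529, 215, 325 and 358 CPM in KM_4A2cr (log2 fold change 0.25, SE 0.14, adjusted p = 0.412 by edgeR). The remaining 8 late enzymes had RPF log2 fold changes from -0.38 to 0.28. Msmo1, the most abundant transcript of the 41, was at 0.23 in RPFs and 0.26 in total RNA and passed in neither. Pair by pair the late enzymes had RPF medians of 0.51, 0.21, -0.10 and -0.30, with 10, 7, 3 and 5 of the 11 above 0. The medians of the early and late enzymes thus lay on different sides of 0 in pairs 1, 2 and 4, though not every gene followed its group. Stard4, a carrier of sterol between membranes, had log2 fold changes of 0.06 in RPFs and 0.12 in total RNA.

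The 5 enzymes that supply acetyl-CoA and build fatty acids from it (Acly, Acss2, Acaca, Acacb and Fasn) lay below 0 in RPFs, 5 of 5, with a median of -0.45, and 4 of the 5 were lower in 4 of 4 pairs, against 16.0% of all genes. Fasn was the 1 of the 5 past the test, against 3.72% of all genes called lower. An unadjusted p under 0.05 by edgeR was found for 4 of the 5, against 23.4% of all genes. Fasn (ENSMUSG00000025153.10), which assembles palmitate, had RPF levels of 499, 374, 336 and 94.8 CPM in KM_NTC and 364, 277, 237 and 71.9 CPM in KM_4A2cr. Replicate 4 was by far the lowest of each line, and the ratio of the lines was 0.731, 0.740, 0.705 and 0.759 in the 4 pairs. The log2 fold change was -0.45 (SE 0.12, adjusted p = 0.0657 by edgeR), and leaving out replicate 1, 2 or 3 ended the call (adjusted p of 0.192 to 0.369 by edgeR), with a value between -0.46 and -0.40 throughout.

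Total RNA of Fasn was at 128, 105, 98.8 and 35.6 CPM in KM_NTC and 129, 97.5, 83.5 and 28.8 CPM in KM_4A2cr, a log2 fold change of -0.15 (SE 0.12, adjusted p = 0.552 by edgeR). The RPF change was thus larger than the RNA change, by -0.31 on the log2 scale (SE 0.10, unadjusted p = 0.00461, adjusted p = 0.124 by edgeR), which missed the threshold. Acaca was at 92.5, 103, 74.8 and 45.5 CPM in KM_NTC RPFs and 80.9, 76.0, 59.5 and 32.3 CPM in KM_4A2cr, lower in 4 of 4 pairs. Its log2 fold change was -0.36 in RPFs (SE 0.12, adjusted p = 0.124 by edgeR) and -0.08 in total RNA (SE 0.13, adjusted p = 0.782 by edgeR), where levels ran from 34.3 to 77.2 CPM in KM_NTC and from 38.7 to 71.0 CPM in KM_4A2cr. Acacb and Acss2, with RPF log2 fold changes of -0.71 and -0.47 (adjusted p = 0.113 and 0.186 by edgeR), were scarce, with at most 63 and 77 RPF counts in a library. Acss2 lies on chromosome 2, where the median RPF log2 fold change over 833 tested genes was -0.21, and the part of that in its value was not tested. Acly, at -0.09 in RPFs and -0.01 in total RNA, was nearest to 0.

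In total RNA the same 5 enzymes had a median of -0.10 and 0 of 5 had an unadjusted p under 0.05 by edgeR, against 18.3% of all genes. Without replicate 4, Fasn (-0.46), Acaca (-0.32) and Acacb (-0.75) fell in RPFs, with adjusted p from 0.00395 to 0.0471 by edgeR, and in total RNA the 4 genes then tested had adjusted p from 0.272 to 0.432.

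**Figure D4:**
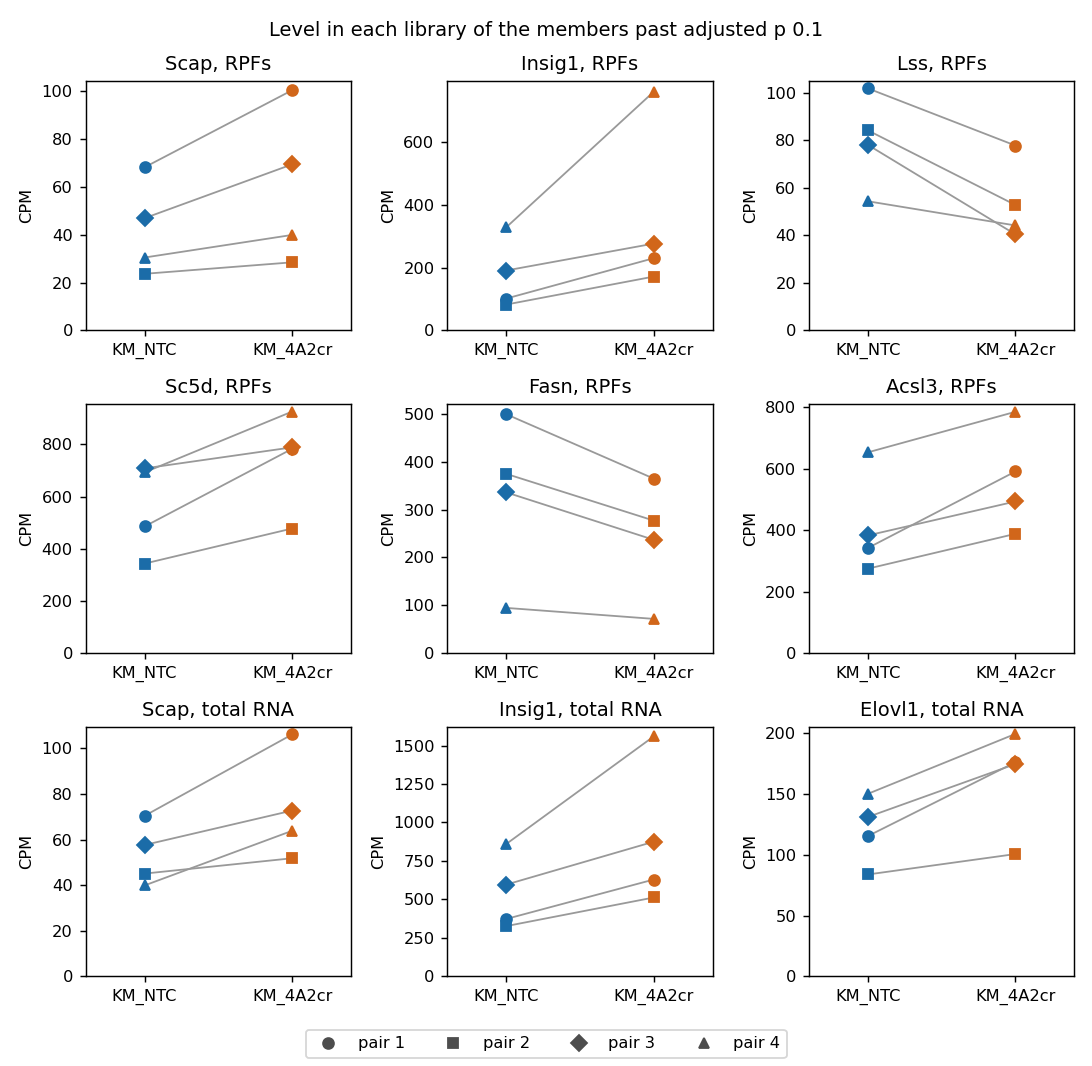
CPM in each library of the 6 members that passed in RPFs and the 3 that passed in total RNA, with lines joining KM_NTC and KM_4A2cr libraries of the same replicate and axes that start at 0. The lines run up for Insig1, Scap, Sc5d, Acsl3 and Elovl1 and down for Lss and Fasn in all 4 pairs, and replicate 4 is lowest for Fasn and highest for Insig1 in both lines.

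The 9 enzymes that elongate, desaturate and activate fatty acids lay on both sides of 0, with 5 above and 4 below in RPFs and a median of 0.06. Acsl3 (ENSMUSG00000032883.16), an acyl-CoA synthetase of the endoplasmic reticulum and lipid droplets, rose. Its RPFs were at 342, 275, 383 and 653 CPM in KM_NTC and 591, 388, 494 and 785 CPM in KM_4A2cr, higher in 4 of 4 pairs with overlapping ranges. The log2 fold change was 0.48 (SE 0.13, adjusted p = 0.0771 by edgeR), and in total RNA it was 0.35 (SE 0.15, adjusted p = 0.239 by edgeR). The other activating enzyme, Acsl4, which prefers arachidonate, was lower in every pair of RPF and of total RNA libraries, at -0.22 and -0.14 (adjusted p = 0.320 and 0.577 by edgeR).

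Elovl1 (ENSMUSG00000006390.16), which elongates saturated very long chains, was the 1 member that rose in total RNA without passing in RPFs. Its total RNA was at 115, 83.8, 131 and 150.2 CPM in KM_NTC and 176, 101, 175 and 199.6 CPM in KM_4A2cr, higher in 4 of 4 pairs (log2 fold change 0.42, SE 0.12, adjusted p = 0.0941 by edgeR). In RPFs it was at 262, 172, 323 and 304 CPM in KM_NTC and 339, 199, 292 and 399.9 CPM in KM_4A2cr, with pair 3 lower (log2 fold change 0.21, SE 0.14, adjusted p = 0.401 by edgeR). Leaving out replicate 1, 2 or 3 ended the total RNA call of Elovl1 (adjusted p of 0.297 to 0.461 by edgeR) and the RPF call of Acsl3 (0.247 to 0.369). Scaling by library size alone also ended them (0.197 and 0.101), and so did upper quartile scaling, no filter, DESeq2 and the RPF isoform alone for Elovl1 (0.110 to 0.228). Without replicate 4 the total RNA of Acsl3 was called (0.45, adjusted p = 0.00137 by edgeR).

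The stearoyl-CoA desaturases, which make monounsaturated fatty acids, did not differ in a set direction. Scd1 was at 114, 76.8, 114 and 193 CPM in KM_NTC RPFs and 156, 75.8, 77.2 and 153 CPM in KM_4A2cr (log2 fold change -0.11, SE 0.17, adjusted p = 0.738 by edgeR). Scd2 was at 1220.3, 658, 991 and 1078 CPM in KM_NTC RPFs and 1675, 707, 885 and 1038 CPM in KM_4A2cr (log2 fold change 0.09, SE 0.14, adjusted p = 0.748 by edgeR). Both were higher in KM_4A2cr in pair 1 and lower in pairs 3 and 4. In total RNA Scd1 ran from 409.8 to 671 CPM in KM_NTC and from 416 to 811 CPM in KM_4A2cr (log2 fold change -0.02, SE 0.17, adjusted p = 0.970 by edgeR), and Scd2 from 1143 to 2238 and from 1274 to 3653 CPM (log2 fold change 0.18, SE 0.20, adjusted p = 0.692 by edgeR). The remaining 4, the elongases Elovl5 and Elovl6 and the desaturases Fads1 and Fads2, had RPF log2 fold changes from -0.21 to 0.09 and total RNA log2 fold changes from -0.03 to 0.35.

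Of the 3 genes of sterol export and esterification, 0 passed by edgeR with all replicates, and Abcg1 alone had an unadjusted p under 0.05, in total RNA. Abca1 was near 0 throughout, with at most 4 RPF counts in a library, a level at which no difference was detectable. Abcg1, a second exporter, was higher in total RNA in 4 of 4 pairs, by 1.20 to 2.08 times (log2 fold change 0.57, SE 0.17, adjusted p = 0.106 by edgeR), and had an RPF log2 fold change of 0.11 (SE 0.26, adjusted p = 0.837 by edgeR). Soat1, which esterifies cholesterol for storage, had log2 fold changes of -0.04 and 0.10. In pair 4 it was 0.52 times the control in RPFs and 0.47 times in total RNA, and in pairs 1 to 3 between 0.96 and 1.55 times in either. Without replicate 4 its log2 fold changes were 0.25 in RPFs (adjusted p = 0.136 by edgeR) and 0.46 in total RNA, where it was then called (adjusted p = 0.000847).

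The sterol and fatty acid arms were set side by side. In RPFs the median log2 fold change was -0.09 over the 19 sterol genes and -0.10 over the 14 fatty acid genes, a difference of 0.01, beside -0.01 for all genes. In total RNA the medians were -0.14 and -0.02. By pair the sterol arm lay at 0.16, -0.20, -0.55 and 0.15 in RPFs and the fatty acid arm at 0.38, -0.02, -0.38 and -0.35. Each arm held 1 gene called higher and 1 called lower in RPFs (Sc5d and Lss, Acsl3 and Fasn). Of all genes, 6.60% were called higher and 3.72% lower. The differences within an arm were larger than those between them: in RPFs the early and late sterol enzymes had medians of -0.26 and -0.04, and the enzymes that build fatty acids and those that modify them -0.45 and 0.06. With each replicate left out, the sterol median minus the fatty acid median lay between -0.19 and -0.0054 for RPFs and between -0.19 and 0.056 for total RNA, where all replicates gave 0.01 and -0.12. These medians are descriptions over genes that share libraries, with no test.

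Translational efficiency, the RPF change beyond the change in total RNA, did not pass for any member. By edgeR 0 of 40 were called, against 2.87% of all 9989 genes, and 5 of 40 had an unadjusted p under 0.05, against 14.1% of all genes. These 5 were Insig1 (0.29), Fasn (-0.31), Acaca (-0.25), Ebp, the sterol isomerase (-0.24), and Elovl1 (-0.22), so the value was above 0 for Insig1 alone among them. RPFs were counted on 1 transcript per gene and total RNA over all isoforms. That transcript held 34.8% of the TPM of Elovl1, 53.2% of Fasn and 100% of Insig1, Acaca and Ebp. No efficiency fit on matched isoforms was run. The group median was -0.25 for the enzymes that build fatty acids, with 5 of 5 below 0, and 0.01 for the regulators, and 30 of the 40 members lay below 0 (median -0.07, beside -0.02 for all genes). Without replicate 4, 5 members were called by edgeR, against 7.94% of all genes. Insig1 was higher (0.29, against 5.04% of all genes), and Elovl5 (-0.48), Fasn (-0.34), Ebp (-0.30) and Elovl1 (-0.27) were lower (against 2.90%).

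**Figure D5:**
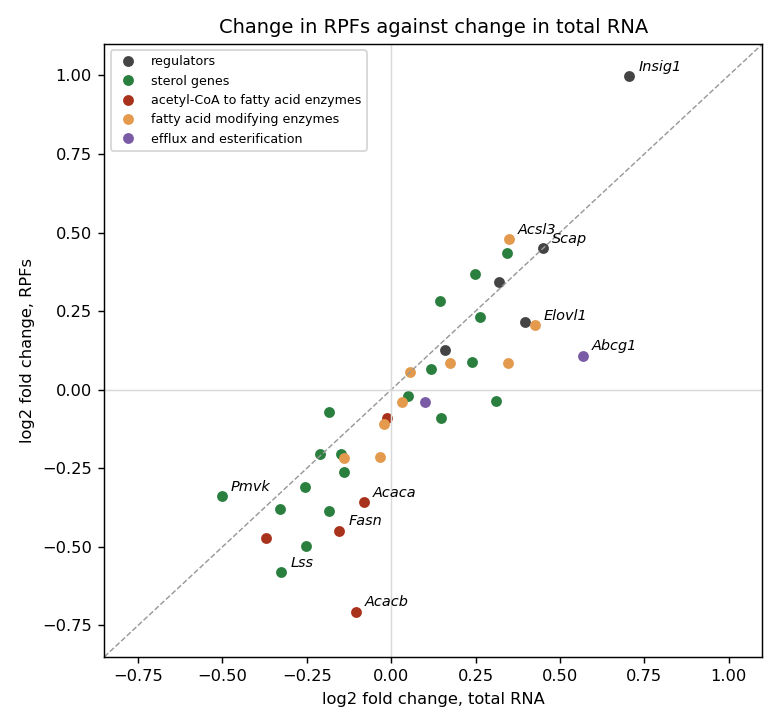
RPF log2 fold change against total RNA log2 fold change of the 40 genes tested, coloured by role, with a dashed line where both are equal. Insig1 (0.71 and 1.00) stands alone at the upper right, and Fasn, Acaca and Acacb lie below the line, with total RNA values of -0.15, -0.08 and -0.10 and RPF values of -0.45, -0.36 and -0.71.

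The pathways that branch from or feed into these genes were counted from further lists, also chosen with earlier results of these data known. Their counts are to be read against 6.60% of all genes higher and 3.72% lower in RPFs. Of 15 genes that use mevalonate products other than sterols, 3 rose and 0 fell in RPFs: Icmt, which methylates prenylated proteins (0.90), Coq2 of coenzyme Q synthesis (0.60) and Nus1, a subunit of dehydrodolichyl diphosphate synthase (0.45). Icmt and Coq2 also rose in total RNA (0.59 and 0.43). Of 14 genes of glycerolipid synthesis, 3 rose and 0 fell in RPFs, with a median of 0.31 and 13 of 14 above 0. Dgat2, which completes triacylglycerol, rose most, by 1.16 in RPFs (SE 0.13, adjusted p = 0.00351 by edgeR) and 0.97 in total RNA (SE 0.16, adjusted p = 0.0119 by edgeR), and the acyltransferases Agpat3 and Lpcat3 rose by 0.71 and 0.57 in RPFs. Of 18 genes of fatty acid oxidation 0 rose and 1, the short-chain dehydrogenase Acads, fell in RPFs (-0.47, adjusted p = 0.0932 by edgeR), with 4 of 18 above 0. The 15 genes for cofactors and the elongation cycle and the 13 for sterol transport and lipid droplets had RPF medians of 0.18 and 0.09 and no adjusted p under 0.1 by edgeR. Without replicate 4, RPF calls were 6 higher and 2 lower of 15 for the mevalonate branch, 9 and 0 of 14 for glycerolipid synthesis, 0 and 3 of 18 for oxidation, 5 and 3 of 16 for cofactors and elongation, and 1 and 1 of 13 for sterol transport, against 19.1% of all genes higher and 14.3% lower. Dgat2 kept its RPF call with each replicate left out (adjusted p of at most 0.0872 by edgeR), Icmt lost it without replicate 2 (0.108), and the other genes named here lost it when replicate 1, 2 or 3 was left out. Beside these, 2 of 6 epithelial markers rose in RPFs (Epcam by 0.51 and Cdh1 by 0.44), the keratins Krt8, Krt18, Krt19 and Krt7 were at -0.05, -0.10, 0.13 and -0.06, and Abca3 rose (0.54). These 3 marker calls were lost when replicate 1, 2 or 3 was left out, and the part of epithelial and alveolar type II markers in the values above was not tested.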

How the data were processed

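The authors deposited RPF counts per transcript as whole numbers: reads were aligned to GENCODE vM27 protein-coding transcripts, 1 per gene, collapsed by molecular identifier and summed over the coding sequence. The deposited total RNA values were expected counts and TPM per isoform from RSEM 1.3.3 after Bowtie2 2.3.5.1 (submitters' processing notes). Expected counts of 38315 isoforms were summed over 20622 genes and rounded.

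Genes were filtered with filterByExpr, scaled by TMM within each kind of library, which hides a change shared by all genes, and tested with edgeR 4.0.16 (R 4.3.3) quasi-likelihood fits with line and replicate as terms. P-values were Benjamini-Hochberg adjusted over all genes tested (threshold 0.1). Translational efficiency was the interaction of line and kind of library over 16 libraries. Differences within pairs used a prior count of 2. Fits were tested on simulated data with planted changes larger than those of every member call other than that of Insig1 in RPFs. The simulation did not cover changes of that smaller size. The replicate numbers pair the libraries, as each is a separate experiment. Within pairs, deviations from the line means correlated across genes at 0.575 to 0.782 in RPFs and 0.611 to 0.756 in total RNA. Mismatched replicates were not compared, and replicate 4 lay farthest from the others in both lines. These correlations therefore cannot show that the other replicates are matched. Intervals were not computed for single libraries, and depth limits scarce genes.

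The members and lists were chosen with earlier results of these data known. Members past the threshold and 10 fixed ones (Srebf1, Srebf2, Insig1, Hmgcs1, Sqle, Fasn, Acaca, Scd1, Scd2, Abca1) were to be given in full, the others by ranges and counts, and genes of other lists where called. Members named beyond that were chosen after their values were seen. RPF levels were not compared between genes. Some items are not reported here by name. Alternatives were no replicate block, other scalings and filters, DESeq2 1.42.0 with the block, a threshold of 0.05, the RPF isoform alone, genes tested in both kinds, and each replicate left out.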

Additional observations from a re-analysis of the deposited data

Results flagged for a closer look

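Of 56 groups of 4 libraries examined for the named members, 2 held 1 library far from the other 3, by Dixon's ratio of gap to range. Chance gives about 1 in 20 groups. Srebf2 total RNA was at 281 CPM in KM_NTC replicate 4, against 199.7 to 206 CPM in the other 3. Scd2 total RNA was at 3653 CPM in KM_4A2cr replicate 1, against 1274 to 1484 CPM in the other 3. Without replicate 1 the total RNA log2 fold change of Scd2 was -0.0012, where all replicates gave 0.18.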

How the results depend on the processing

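Fits without the replicate block left 0 genes called in RPFs, 0 in total RNA and 0 in translational efficiency by edgeR (365, 362 and 22 at an unadjusted p under 0.05), where the paired fits called 1062, 667 and 287. Members called then were 0 in RPFs and 0 in total RNA, where the paired fits called 6 and 3. With each replicate left out in turn, genes called ran from 32 to 3469 for RPFs, 63 to 3260 for total RNA and 15 to 800 for translational efficiency, and members from 1 to 17, 0 to 19 and 0 to 5, each highest without replicate 4. At a threshold of 0.05, 438, 321 and 75 genes and 1, 1 and 0 members passed. Scaling by library size alone called 1619, 1130 and 133 genes and moved the median of all genes to -0.14 in RPFs and -0.15 in total RNA. Higher calls were 679 of 1062 in RPFs and 473 of 667 in total RNA, but 482 of 1619 and 262 of 1130 with that scaling. Upper quartile scaling gave 534 of 998 and 325 of 541. With no filter on low counts 1268 genes were called in total RNA, 470 in translational efficiency, and 1 member in translational efficiency. Members called in total RNA fell to 1 with upper quartile scaling, with DESeq2 and with counts of the RPF isoform alone.

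Signs turned for genes near 0. In RPFs, scaling by library size alone gave -0.0019 for Srebf1, -0.043 for Hmgcs1 and -0.042 for Scd2. With each replicate left out, RPF values ran from -0.17 (without replicate 4) to 0.25 for Hmgcs1, from -0.30 to 0.066 (without replicate 3) for Scd1 and from -0.038 (without replicate 1) to 0.20 for Scd2. Total RNA values ran from -0.18 to 0.084 (without replicate 3; 0.074 without replicate 4) for Scd1 and from -0.0012 (without replicate 1) to 0.26 for Scd2, and Scd1 was at 0.0091 without the replicate block. The cause was not tested. Of the other values of named members under alternatives, 272 kept their direction and side of the threshold, 47 lost it and 7 passed it. Scarce genes such as Abca1, Acacb and Acss2 were limited by depth.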
